A study of Homo sapiens with 8 samples.

Results

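The clustered protocadherins are a family of cell-surface adhesion proteins whose genes lie side by side on chromosome 5. The members were every protein-coding row of the deposited count table whose symbol begins PCDHA, PCDHB or PCDHG followed by a cluster label, which gave 53 of the 58336 rows. They divide into 15 alpha, 16 beta and 22 gamma genes. All 53 are annotated on the + strand, and together they span 727 kb of chromosome 5 (chr5:140786136-141512981, hg38 with GENCODE release 29).

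The 8 libraries are polyA RNA from the established cell line SUM159, which was derived from a human triple-negative breast cancer and is mesenchymal in character. Bleomycin-lung cells (n = 3) are ITGB4-low clone 1 cells that were injected into mice by the tail vein, exposed in the lung to bleomycin given through the trachea, recovered by dissociating the lungs, kept overnight in a dish and sorted for the tdTomato label. ITGB4-low clone 1 cells (n = 3) and ITGB4-high cells (n = 2) were grown in dishes. Bleomycin is a drug that injures and inflames the lung, and ITGB4 encodes integrin beta 4, a laminin receptor subunit. Every ITGB4-low library comes from 1 clone, so what belongs to that clone and what belongs to low ITGB4 cannot be told apart. No library comes from lungs without bleomycin, so bleomycin, passage through the mouse, and dissociation and sorting cannot be told apart either. The labels call the replicates biological without naming cultures or animals, so the p-values speak only of library-to-library spread, which may be technical.

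Protocadherin proteins of neighbouring cells bind each other through their extracellular cadherin repeats, and the family is best known for giving single neurons a surface identity. Each alpha and gamma gene has its own first exon, which is spliced to constant exons shared by its cluster and encoding the intracellular end, whereas beta genes lack such constant exons. In neurons each cell uses a subset of the promoters, a choice known to involve the looping proteins CTCF and cohesin and DNA methylation. The C-type genes at the ends of the alpha and gamma clusters are used more uniformly, and members are also expressed outside the nervous system.

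The libraries held 20413724 to 27218800 counts, and levels are given in CPM (counts per 1000000, TMM-scaled), 1 of which stood for 20.59 to 26.6 counts. ITGB4, the gene that defines the groups, measured 401, 376 and 407 CPM in bleomycin-lung cells, 5.29, 7.46 and 9.13 CPM in ITGB4-low clone 1 cells, and 420 and 376 CPM in ITGB4-high cells. The labels of the dish-grown cells therefore matched the gene, and the lung-recovered cells were at the ITGB4-high level (log2 fold change over ITGB4-high cells -0.01 ± 0.07 SE, edgeR adjusted p = 0.903). Of all rows, 15220 passed the filter on low counts and were tested, and they included 19 of the 53 members: none of the 15 alpha, 14 of the 16 beta and 5 of the 22 gamma genes. A member expressed in 1 group only passes that filter through the group where it is high, so counts, shares and medians among the 19 do not describe the 53.

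The promoters are shown first because PCDHB8 and PCDHB13, 2 beta genes with near-identical upstream sequence, are among those that differed most between the groups. RefSeq promoters of the build GRCh38.p14, which run from 250 bases before to 50 bases after the annotated start, were matched by symbol for 47 of the 53 members. The 3 beta promoters belong to the members with the largest called changes that were matched, PCDHGB7 is the gene called lower in the clone, and PCDHGC3, chosen after its values were seen, is the most abundant member. The windows, all on the + strand and written 5′ to 3′, are chr5:141182137-141182436 for PCDHB16, chr5:141177540-141177839 for PCDHB8, chr5:141213669-141213968 for PCDHB13, chr5:141417427-141417726 for PCDHGB7 and chr5:141475716-141476015 for PCDHGC3. Capitals mark the letters CGCT read on either strand, the core of the conserved element described in protocadherin promoters.
PCDHB16 promoter: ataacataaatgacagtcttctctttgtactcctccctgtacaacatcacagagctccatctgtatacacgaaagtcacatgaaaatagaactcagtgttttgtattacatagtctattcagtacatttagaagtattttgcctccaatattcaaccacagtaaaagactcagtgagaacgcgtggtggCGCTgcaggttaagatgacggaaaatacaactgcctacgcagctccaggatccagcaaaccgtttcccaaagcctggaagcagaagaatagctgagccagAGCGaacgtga
PCDHB8 promoter: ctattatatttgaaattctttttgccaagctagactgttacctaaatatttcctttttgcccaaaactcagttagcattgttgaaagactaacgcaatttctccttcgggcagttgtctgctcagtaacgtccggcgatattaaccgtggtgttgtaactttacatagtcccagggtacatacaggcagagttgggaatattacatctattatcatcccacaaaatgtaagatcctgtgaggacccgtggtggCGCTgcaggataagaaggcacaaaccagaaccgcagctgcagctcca
PCDHB13 promoter: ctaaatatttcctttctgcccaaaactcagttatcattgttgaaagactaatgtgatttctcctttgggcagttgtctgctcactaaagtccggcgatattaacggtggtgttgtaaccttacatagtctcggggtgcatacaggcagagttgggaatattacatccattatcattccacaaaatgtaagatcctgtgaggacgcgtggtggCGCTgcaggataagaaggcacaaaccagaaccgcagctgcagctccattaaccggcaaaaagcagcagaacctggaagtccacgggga
PCDHGB7 promoter: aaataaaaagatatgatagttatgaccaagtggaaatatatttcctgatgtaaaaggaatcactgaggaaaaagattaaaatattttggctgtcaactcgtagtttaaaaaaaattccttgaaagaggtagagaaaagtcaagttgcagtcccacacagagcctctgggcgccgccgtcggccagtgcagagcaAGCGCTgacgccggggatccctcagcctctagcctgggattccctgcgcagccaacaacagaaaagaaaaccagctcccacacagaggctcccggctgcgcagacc
PCDHGC3 promoter: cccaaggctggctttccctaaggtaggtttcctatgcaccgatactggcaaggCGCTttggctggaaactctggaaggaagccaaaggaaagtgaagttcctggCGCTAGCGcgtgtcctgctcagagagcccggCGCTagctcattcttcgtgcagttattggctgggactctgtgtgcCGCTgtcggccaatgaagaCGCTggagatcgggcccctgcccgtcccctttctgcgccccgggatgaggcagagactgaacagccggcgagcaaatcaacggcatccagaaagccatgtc
CGCT on either strand was found in 46 of the 47 member promoters (12 of 13 alpha, 14 of 14 beta and 20 of 20 gamma) and in 69.4% of all 27305 promoters of the same length, so these 4 letters alone are common. The longest run of letters held by at least 10 of the 14 beta promoters was GGTGGCGCTGCAG, 13 bases that overlap CGCT. Read on both strands, it occurred in 10 of the 14 beta promoters, as that choice requires, in none of the 13 alpha and 20 gamma promoters, and in 14 of all 27305 promoters, a share of 0.0513%. The 10 are PCDHB2, PCDHB4, PCDHB5, PCDHB8, PCDHB9, PCDHB10, PCDHB12, PCDHB13, PCDHB15 and PCDHB16, of which 5 were called higher in ITGB4-low clone 1 than in ITGB4-high cells, as were 28.6% of all tested genes, and 5 were not called. Of the 4 beta promoters without the run, 2 belong to tested genes, and 1 of those was called higher. The PCDHB8 and PCDHB13 windows were identical at 243 of 259 aligned bases (93.8%) when shifted by 41 bases without gaps, against 97 of 236 (41.1%) for PCDHB16 and PCDHB8. Only the 5 printed promoters, picked by level or change, were aligned, so a link between likeness and expression was not tested. TATAAA on both strands was found in 6 of the 47 member promoters and in 11.95% of all. A match or its absence in these windows is a description of letters and shows nothing of binding.

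The beta cluster was higher in the clone and in lung-recovered cells than in ITGB4-high cells. Summed over its 16 genes, it measured 24.1 ± 0.588 CPM in bleomycin-lung cells (SD, n = 3), 24.5 ± 0.527 CPM in ITGB4-low clone 1 cells (SD, n = 3) and 9.99 ± 1.40 CPM in ITGB4-high cells (SD, n = 2). The sum was thus 2.45 times as high in the clone as in ITGB4-high cells, 2.41 times as high in lung-recovered as in ITGB4-high cells, and 0.983 times as high in lung-recovered cells as in the clone. By library it was 23.6, 24.7 and 23.99 CPM in bleomycin-lung cells, 25.01, 23.96 and 24.5 CPM in ITGB4-low clone 1 cells, and 11.0 and 9.001 CPM in ITGB4-high cells, so the lung and clone libraries lay together above both ITGB4-high libraries. The gamma cluster summed to 17.1 ± 1.04 CPM in bleomycin-lung, 14.6 ± 0.927 CPM in ITGB4-low clone 1 and 13.6 ± 0.147 CPM in ITGB4-high cells. Sums are given as levels, with no test. In bulk RNA, fewer expressing cells and less RNA per cell cannot be told apart.

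**Figure D1:**
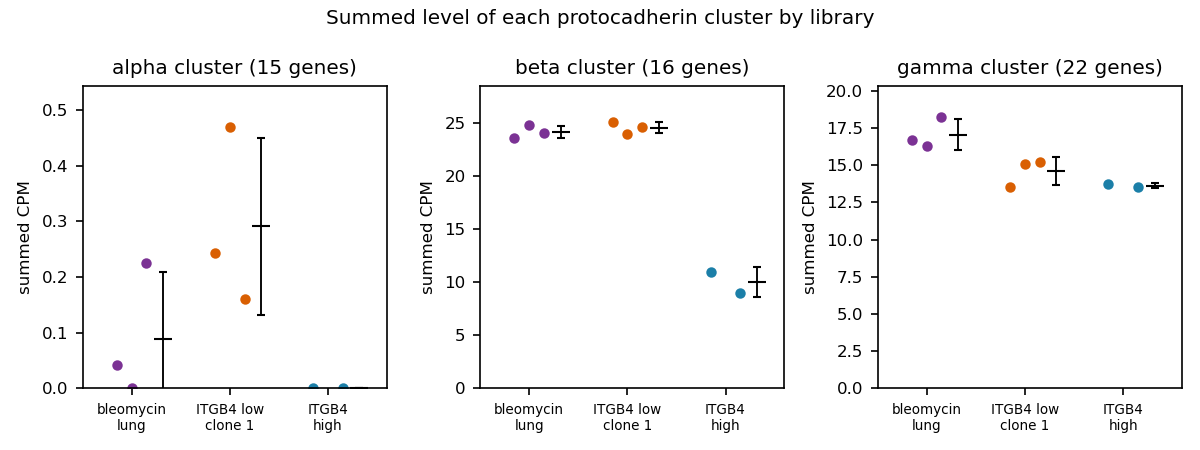
Summed CPM of the alpha, beta and gamma clusters (y axes, linear and of different range) in each library of the 3 groups; dots are libraries and the black mark with bars is the group mean ± SD. The beta sums of the lung and clone libraries lie between 23.6 and 25.01 CPM, above the ITGB4-high libraries at 11.0 and 9.001 CPM.

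The alpha cluster had few counts in every group. Alpha genes share 21.3% to 56.6% of their exonic bases with other genes, and how reads over shared exons were counted is not given in the sources used here. Its 15 genes together had 7 counts in the bleomycin-lung libraries, 19 in the ITGB4-low clone 1 libraries and 0 in the ITGB4-high libraries, and 7 of them, PCDHA4, PCDHA5, PCDHA6, PCDHA7, PCDHA8, PCDHA13 and PCDHAC2, had no count anywhere. No alpha gene exceeded 3 counts in a library, and the highest total was 6 counts for PCDHA3. Pooled over its libraries, at 5, 10 and 4 counts, the ITGB4-low clone 1 sum was 0.285 CPM (95% counting interval 0.171 to 0.444). That was 4.95 times the limit that 0 counts allow in ITGB4-high cells (3 counts over the group, 0.0575 CPM). The ratio leaves out the counting error of the clone and is no lower bound. The lung sum was 0.344 times the clone sum (95% counting interval 0.122 to 0.854), but 6 of its 7 counts came from lung replicate 3 and the other 2 lung libraries held 1 and 0 counts. Counting intervals and limits cover counting error only.

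Per kilobase of exonic sequence that no other gene on the strand covers, PCDHGC3 had the highest level of the 53 in every group, at 3.80 ± 0.265 CPM per kb in bleomycin-lung, 3.25 ± 0.216 in ITGB4-low clone 1 and 3.12 ± 0.178 in ITGB4-high cells. PCDHGC3 is the first of the C-type gamma genes, and its protein is known to bind the WNT regulator AXIN1. It held 72.4%, 72.3% and 74.5% of the gamma counts in bleomycin-lung, ITGB4-low clone 1 and ITGB4-high cells, while PCDHGC4 and PCDHGC5, the other C-type gamma genes, had 3 counts each over all 8 libraries. PCDHB2 came next in every group, at 1.59 ± 0.0776 CPM per kb in bleomycin-lung, 1.47 ± 0.211 in ITGB4-low clone 1 and 0.836 ± 0.0465 in ITGB4-high cells.

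Below these 2 the order differed by group. In bleomycin-lung cells PCDHB6 followed at 1.14 ± 0.0621 CPM per kb, then PCDHB5 at 0.804 ± 0.0610, PCDHB8 at 0.653 ± 0.0624 and PCDHB16 at 0.625 ± 0.0327, the last 2 within their spread of each other. In ITGB4-low clone 1 cells PCDHB16 at 0.982 ± 0.0829 CPM per kb and PCDHB6 at 0.894 ± 0.142 did not differ beyond their spread, followed by PCDHB8 at 0.646 ± 0.176 and PCDHB5 at 0.492 ± 0.0547. In ITGB4-high cells the places after PCDHB2 were taken by PCDHGB7 at 0.502 ± 0.0761 CPM per kb, PCDHB5 at 0.347 ± 0.119 and PCDHB14 at 0.292 ± 0.0457, while PCDHB16 stood at 0.0751 ± 0.0339. PCDHB16 made up 11.8 ± 0.375% of the beta counts in bleomycin-lung, 18.3 ± 1.93% in ITGB4-low clone 1 and 3.36 ± 1.08% in ITGB4-high cells, and PCDHB6 15.5 ± 1.17%, 11.9 ± 1.65% and 4.70 ± 1.13% in the same order of groups. PCDHB2 ran the other way, at 27.2 ± 0.706%, 24.7 ± 3.08% and 34.7 ± 2.93% of the beta counts. The 17 gamma genes that were not tested had at most 13 counts in a library, against 204 to 354 for PCDHGC3, so reads over the shared 3′ exons were not added to every gamma gene, although how they were counted is not given in the sources used here.

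**Figure D2:**
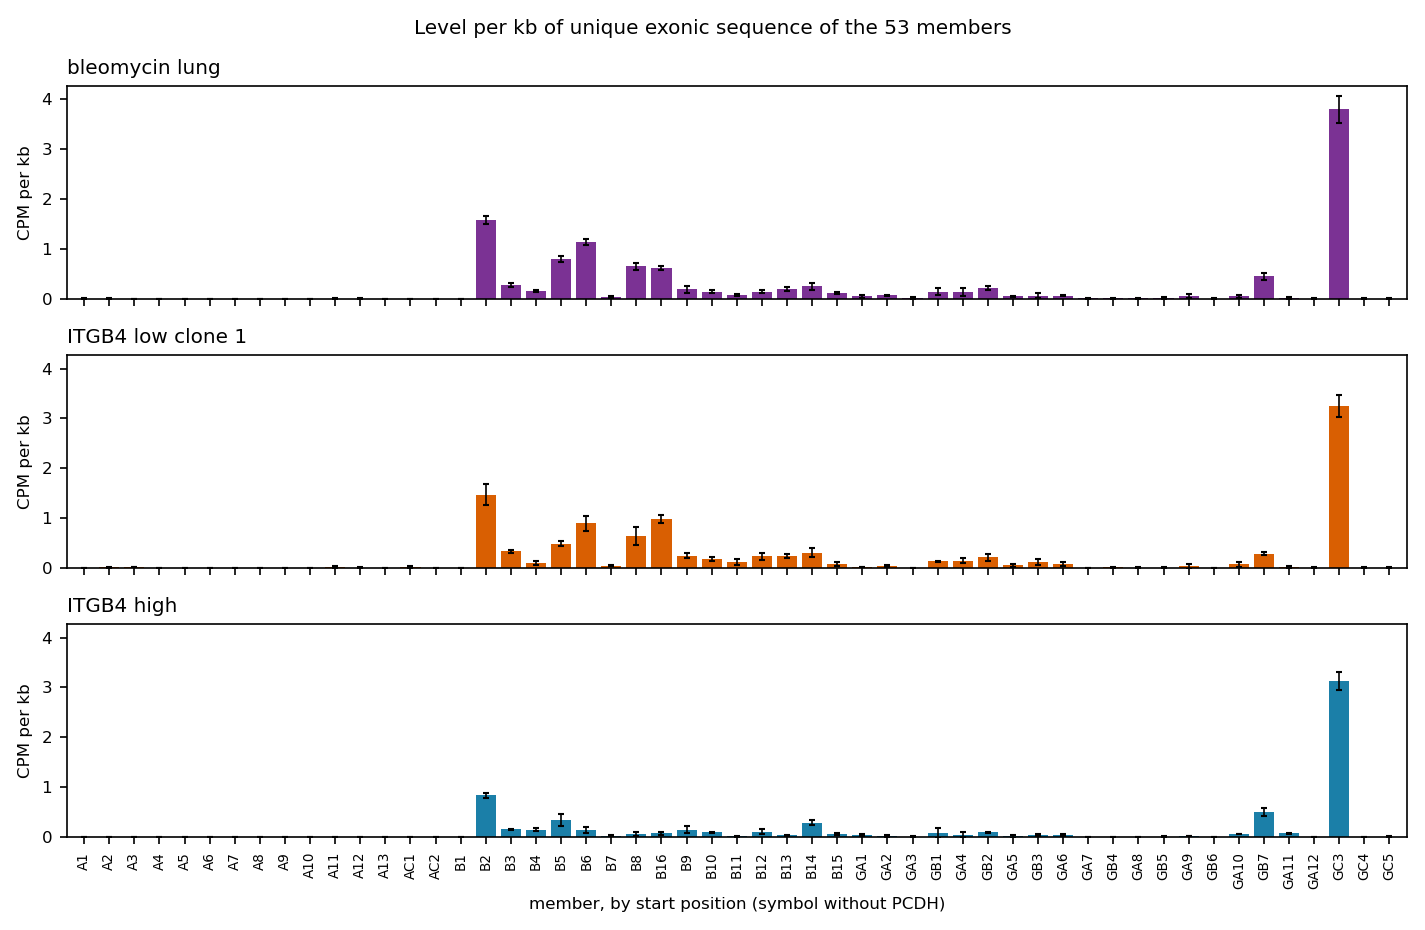
Mean level per kb of unique exonic sequence (y axis, CPM per kb, bars with SD) of the 53 members in order of start position (x axis) in bleomycin-lung, ITGB4-low clone 1 and ITGB4-high cells. PCDHGC3 stands highest in each panel, and the bars of PCDHB6, PCDHB8 and PCDHB16 reach 0.625 to 1.14 CPM per kb in lung and clone cells against 0.0604 to 0.146 in ITGB4-high cells.

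For ITGB4-low clone 1 against ITGB4-high cells, 9 of the 19 tested members rose, 1 fell and 9 were not called at an adjusted p under 0.05. Of all genes tested, 28.6% were called higher and 27.6% lower, and the members' median log2 fold change was 1.05, against 0.0009 over all genes. Of those called, 8 members were higher by at least 2-fold, as were 9.12% of all genes. Some risers had few counts in ITGB4-high cells, such as PCDHB8 with 6 and 2, and passed the low-count filter through the other groups. Members low in those groups could drop out, as did PCDHGA11, with 7 and 8 ITGB4-high counts against 1, 4 and 2 clone counts. The shares and the median therefore describe the tested members and not the family. The genes that rose were 8 beta members and the gamma member PCDHGB2, and the gene that fell was PCDHGB7. The 8 beta genes that rose summed to 17.7 ± 0.522 CPM in bleomycin-lung, 18.9 ± 0.357 CPM in ITGB4-low clone 1 and 5.63 ± 0.413 CPM in ITGB4-high cells, and the other 8 beta genes to 6.40 ± 0.165, 5.59 ± 0.174 and 4.36 ± 0.984 CPM in the same groups. The 8 were picked by that call in these libraries, so the larger step of their sum from ITGB4-high cells to the clone follows from the choice.

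PCDHB16 (ENSG00000272674, chr5:141181399-141186399), whose promoter is the first printed above, changed most. Its printed RefSeq window, chr5:141182137-141182436, lies inside this GENCODE span and is not upstream of the GENCODE start. PCDHB16 measured 2.69, 2.98 and 2.90 CPM in bleomycin-lung cells, 4.08, 4.83 and 4.55 CPM in ITGB4-low clone 1 cells, and 0.453 and 0.234 CPM in ITGB4-high cells. The clone exceeded ITGB4-high cells by 3.68 ± 0.27 on the log2 scale (SE, edgeR adjusted p = 5.99e-10), 12.8-fold, and the lowest clone library, at 4.08 CPM, lay above both ITGB4-high libraries. Its neighbour PCDHB8 (ENSG00000120322, chr5:141177790-141180529) measured 1.76, 1.70 and 1.47 CPM in bleomycin-lung cells, 1.12, 1.88 and 1.89 CPM in ITGB4-low clone 1 cells, and 0.226 and 0.0779 CPM in ITGB4-high cells. The log2 fold change was 3.38 ± 0.45 (edgeR adjusted p = 2.26e-06), but it rests on 6 and 2 counts in the ITGB4-high libraries and was 4.30 without ITGB4-high replicate 1. PCDHB13 (ENSG00000187372, chr5:141213919-141218979) measured 0.924, 1.28 and 0.940 CPM in bleomycin-lung cells, 1.12, 1.5 and 1.05 CPM in ITGB4-low clone 1 cells, and 0.151 and 0.195 CPM in ITGB4-high cells. Its log2 fold change was 2.78 ± 0.43 (edgeR adjusted p = 1.66e-05). PCDHB8 and PCDHB13, whose printed promoters are nearly alike, also share transcript sequence: 33.0% of the 50-base words of PCDHB8 occur in PCDHB13 and 17.7% of those of PCDHB13 in PCDHB8, so the split of reads between them is uncertain.

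PCDHB6 (ENSG00000113211, chr5:141150022-141153287), of whose 50-base words 14.5% occur in any other gene, measured 3.82, 3.499 and 3.87 CPM in bleomycin-lung cells, 3.45, 2.58 and 2.74 CPM in ITGB4-low clone 1 cells, and 0.604 and 0.351 CPM in ITGB4-high cells. Its log2 fold change of the clone over ITGB4-high cells was 2.59 ± 0.28 (edgeR adjusted p = 1.57e-07), with no overlap between the groups, as for 68.7% of all tested genes. PCDHB11, a low-level member, averaged 0.349 ± 0.0984 CPM in bleomycin-lung, 0.554 ± 0.252 CPM in ITGB4-low clone 1 and 0.0773 ± 0.0560 CPM in ITGB4-high cells. Its log2 fold change of 2.77 ± 0.67 (edgeR adjusted p = 0.00163) rests on 1 and 3 counts in the ITGB4-high libraries, and it was 2.19 without ITGB4-high replicate 1 and 3.69 without ITGB4-high replicate 2.

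PCDHB2 (ENSG00000112852, chr5:141094578-141098703), the most abundant beta member, measured 6.22, 6.86 and 6.58 CPM in bleomycin-lung cells, 6.70, 5.06 and 6.40 CPM in ITGB4-low clone 1 cells, and 3.58 and 3.31 CPM in ITGB4-high cells. The clone was higher by 0.81 ± 0.15 on the log2 scale (edgeR adjusted p = 0.000156), a smaller step than that of PCDHB6, PCDHB8 or PCDHB16. PCDHB3 (ENSG00000113205, chr5:141100473-141103827) measured 0.840, 1.09 and 0.940 CPM in bleomycin-lung cells, 1.17, 1.22 and 1.01 CPM in ITGB4-low clone 1 cells, and 0.566 and 0.507 CPM in ITGB4-high cells. Its groups did not overlap either, with a log2 fold change of 1.06 ± 0.32 (edgeR adjusted p = 0.0088), which became 0.98 (adjusted p = 0.0617) without ITGB4-high replicate 2. PCDHB12 averaged 0.565 ± 0.0992 CPM in bleomycin-lung, 0.926 ± 0.271 CPM in ITGB4-low clone 1 and 0.424 ± 0.172 CPM in ITGB4-high cells. Its call (log2 fold change 1.11 ± 0.40, edgeR adjusted p = 0.0245) was lost without ITGB4-high replicate 1 (0.74, adjusted p = 0.23) and without ITGB4-low replicate 2 (0.86, adjusted p = 0.111).

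The other 6 tested beta genes were not called between the clone and ITGB4-high cells. PCDHB5 (ENSG00000113209, chr5:141135218-141138625) measured 2.90, 2.51 and 2.82 CPM in bleomycin-lung cells, 1.51, 1.88 and 1.65 CPM in ITGB4-low clone 1 cells, and 1.47 and 0.896 CPM in ITGB4-high cells. The clone over ITGB4-high log2 fold change was 0.50 ± 0.26 (edgeR adjusted p = 0.11), and single ITGB4-high libraries moved it. It was 0.89 (edgeR adjusted p = 0.032) without replicate 1 and 0.18 (adjusted p = 0.632) without replicate 2. PCDHB9 (ENSG00000177839, chr5:141187127-141191541) measured 0.672, 0.567 and 1.13 CPM in bleomycin-lung cells, 0.777, 1.03 and 1.21 CPM in ITGB4-low clone 1 cells, and 0.792 and 0.390 CPM in ITGB4-high cells. These libraries overlapped, and the log2 fold change of 0.77 ± 0.39 (edgeR adjusted p = 0.102) became 1.36 (adjusted p = 0.0458) without ITGB4-high replicate 1 and 0.35 (adjusted p = 0.55) without ITGB4-high replicate 2. PCDHB14 (ENSG00000120327, chr5:141222932-141227759) measured 0.924, 1.56 and 1.13 CPM in bleomycin-lung cells, 1.89, 1.36 and 1.05 CPM in ITGB4-low clone 1 cells, and 1.51 and 1.21 CPM in ITGB4-high cells. Its 3 groups overlapped, and the clone over ITGB4-high log2 fold change was 0.06 ± 0.30 (edgeR adjusted p = 0.881). PCDHB4, PCDHB10 and PCDHB15, all under 1 CPM in every group, had log2 fold changes of -0.56 ± 0.42, 0.90 ± 0.43 and 0.38 ± 0.54, and the untested PCDHB1 and PCDHB7 had 1 and 27 counts over all libraries.

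**Figure D3:**
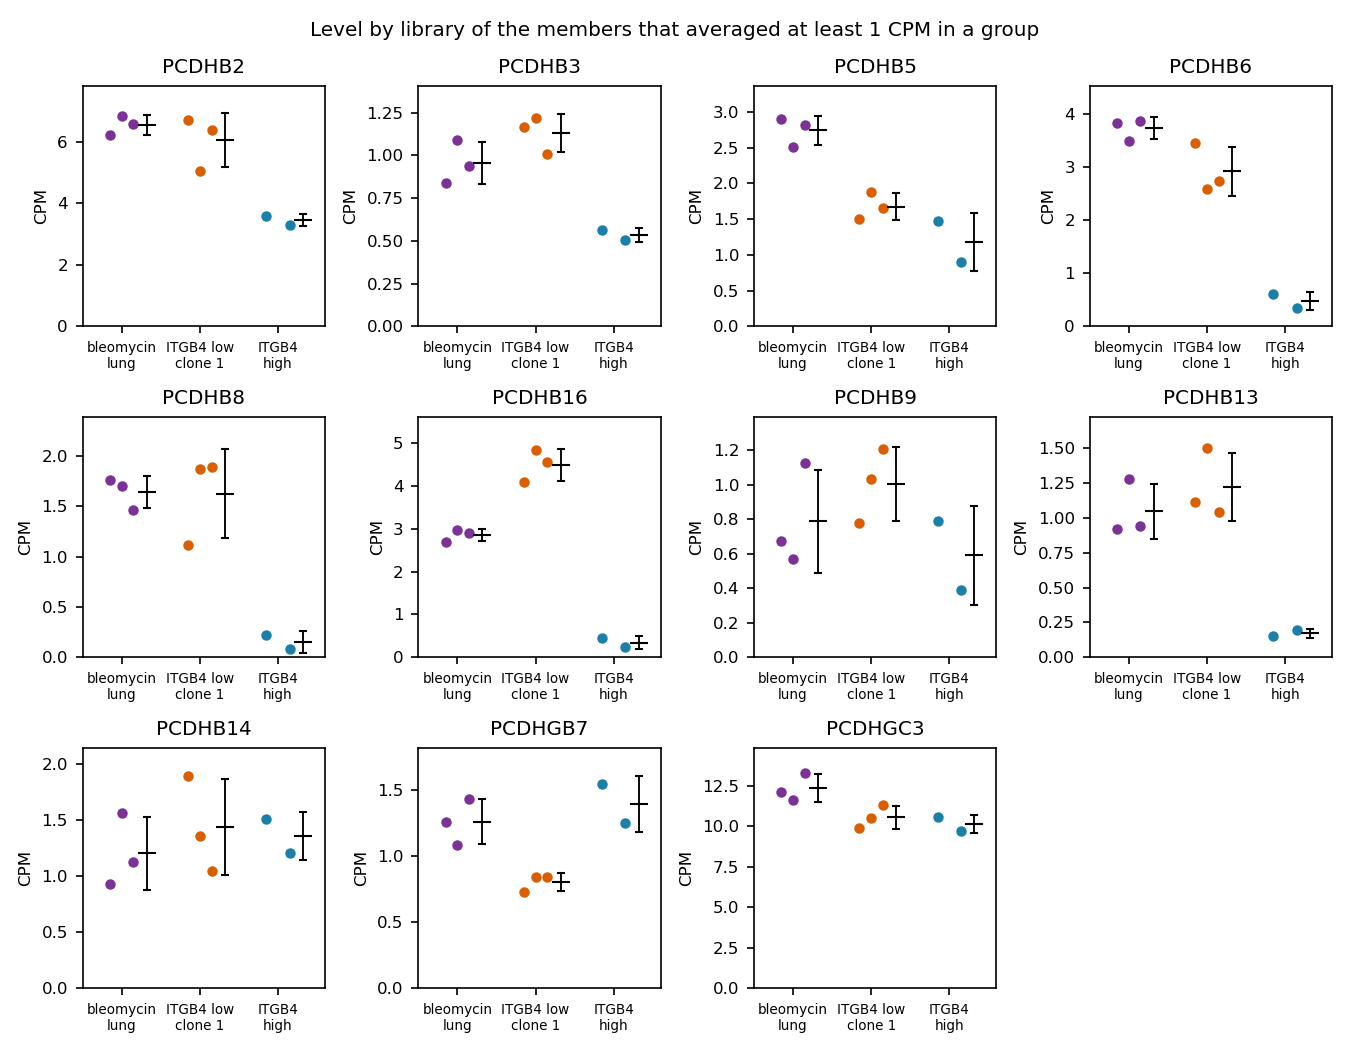
Levels in CPM (y axes, linear, each from 0) of the 11 members that averaged at least 1 CPM in a group, by library in the 3 groups; dots are libraries and black marks are means ± SD. PCDHB6, PCDHB8, PCDHB13 and PCDHB16 lie at 0.604 CPM or below in the ITGB4-high libraries and at 0.924 CPM or above in the lung and clone libraries, whereas PCDHB14 and PCDHGC3 lie in a similar range in ITGB4-low clone 1 and ITGB4-high cells.

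Of the 5 tested gamma genes, 1 rose (20%), 1 fell (20%) and 3 were not called in the clone against ITGB4-high cells. Of all genes, 28.6% were called higher and 27.6% lower there. Of the 5 gamma log2 fold changes, 4 were above 0, with a median of 1.05. PCDHGA4, PCDHGA6 and PCDHGB2, which set that median, had at most 8 counts in an ITGB4-high library and passed the low-count filter through the other groups. The median therefore does not describe the 22 gamma genes, which summed to 14.6 CPM in the clone and 13.6 CPM in ITGB4-high cells. PCDHGC3 (ENSG00000240184, chr5:141475947-141512979) measured 12.1, 11.6 and 13.3 CPM in bleomycin-lung cells, 9.91, 10.5 and 11.3 CPM in ITGB4-low clone 1 cells, and 10.6 and 9.74 CPM in ITGB4-high cells. The clone and ITGB4-high libraries overlapped, at a log2 fold change of 0.06 ± 0.10 (edgeR adjusted p = 0.639), on 204 to 281 counts in a library. PCDHGB7 (ENSG00000254122, chr5:141417645-141512979), a B-type gamma gene, measured 1.26, 1.09 and 1.43 CPM in bleomycin-lung cells, 0.729, 0.844 and 0.845 CPM in ITGB4-low clone 1 cells, and 1.55 and 1.25 CPM in ITGB4-high cells. It was lower in the clone, at a log2 fold change of -0.79 ± 0.28 (edgeR adjusted p = 0.0228), a call lost without ITGB4-high replicate 1 (-0.63, adjusted p = 0.163) or ITGB4-low replicate 1 (-0.72, adjusted p = 0.0548). PCDHGB2 averaged 0.578 ± 0.124 CPM in bleomycin-lung, 0.557 ± 0.169 CPM in ITGB4-low clone 1 and 0.250 ± 0.0328 CPM in ITGB4-high cells. Its higher level in the clone, 1.14 ± 0.47 on the log2 scale (edgeR adjusted p = 0.047), was no longer called when any of 5 single libraries was left out, with log2 fold changes of 0.87 to 1.27: either ITGB4-high replicate, ITGB4-low replicates 2 and 3, or lung replicate 1. PCDHGB2 was also not called by DESeq2, by limma-voom, without the low-count filter, with a replicate block or with only these 2 groups. PCDHGA4 and PCDHGA6 had log2 fold changes of 1.51 ± 0.69 and 1.05 ± 0.50 that did not pass the test. Overlapping gamma genes share 27.6% to 64.4% of their exonic bases with other genes on the same strand, and beta genes 0% to 9.43%. Beta counts are not free of ambiguity, because 2.36% to 49.3% of the 50-base words of a beta gene occur in other genes. For gamma genes that share was 34.2% to 71.1%. In 10 of the 16 beta genes, exons also overlap exons on the other strand, and the counter's strand setting is not given.

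For bleomycin-lung cells against the clone they derive from, 1 of the 19 tested members rose, 1 fell and 17 were not called, while 14.7% of all genes were called higher and 15.4% lower. The members' median log2 fold change was -0.007, against 0.0003 over all genes. ITGB4 itself was higher in the lung-recovered cells by 5.74 ± 0.10 on the log2 scale (edgeR adjusted p = 3.54e-19). PCDHB16 fell, by 0.65 ± 0.16 on the log2 scale (edgeR adjusted p = 0.00393), and its lung libraries at 2.69 to 2.98 CPM lay below the clone libraries at 4.08 to 4.83 CPM. PCDHB5 rose by 0.71 ± 0.20 (edgeR adjusted p = 0.0114), with lung libraries at 2.51 to 2.90 CPM above clone libraries at 1.51 to 1.88 CPM. PCDHB5 was not called by DESeq2 (adjusted p = 0.0592).

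The other 9 members called between the clone and ITGB4-high cells were not called by edgeR between lung and clone libraries, although some of their log2 fold changes were as large as that of PCDHB16. PCDHB12 was at -0.71 ± 0.34 (edgeR adjusted p = 0.136), and its lung libraries at 0.451 to 0.630 CPM lay below the clone libraries at 0.684 to 1.22 CPM. PCDHB11 was at -0.66 ± 0.44 (edgeR adjusted p = 0.289), with overlapping libraries. PCDHB8 had a lung over clone log2 fold change of -0.002 ± 0.25, PCDHB13 of -0.23 ± 0.27, PCDHB2 of 0.11 ± 0.13 and PCDHB3 of -0.24 ± 0.26, with edgeR adjusted p from 0.537 to 0.998, and for each of these 4 the lung and clone libraries overlapped. PCDHB6 did not overlap, at 0.36 ± 0.17, but was not called (edgeR adjusted p = 0.125). PCDHGB7 and PCDHGC3 were likewise higher in every lung library than in any clone library without passing the test, at 0.65 ± 0.26 and 0.23 ± 0.09 (edgeR adjusted p = 0.0724 for each). Over all genes, the libraries of these 2 groups did not overlap for 43.3%. A log2 fold change that did not pass the test does not show equal levels: the SE of the members in this comparison ran from 0.09 for PCDHGC3 to 0.51 for PCDHGA4.

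**Figure D4:**
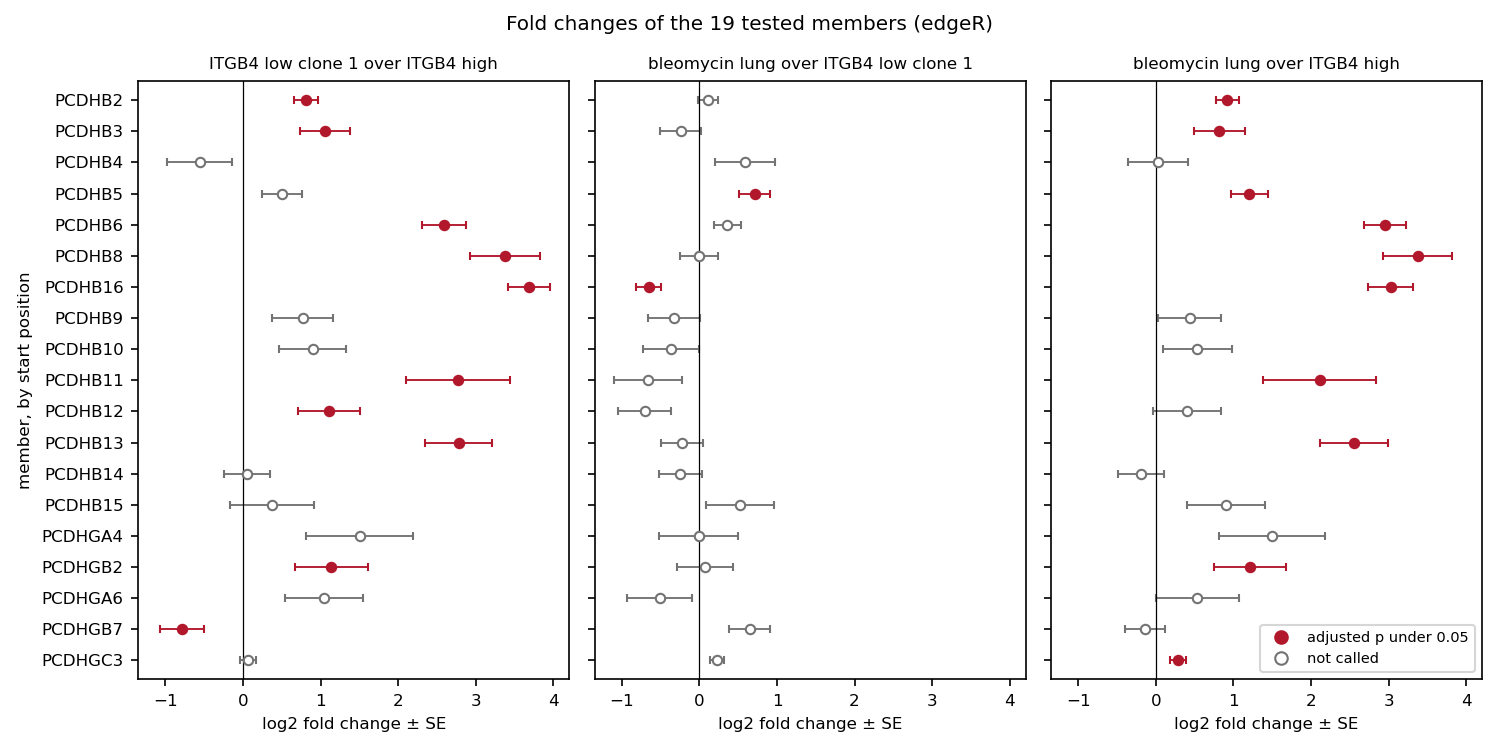
Log2 fold changes with SE (x axis) of the 19 tested members in order of start position (y axis) for ITGB4-low clone 1 over ITGB4-high, bleomycin-lung over ITGB4-low clone 1, and bleomycin-lung over ITGB4-high cells; filled red points have an edgeR adjusted p under 0.05. PCDHB6, PCDHB8, PCDHB11, PCDHB13 and PCDHB16 lie above 2 in the left and right panels, and all 19 lie between -0.71 and 0.71 in the middle panel.

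For bleomycin-lung against ITGB4-high cells, a comparison that shares its libraries with the 2 above, 10 of the 19 tested members rose and none fell by edgeR (0 also at an unadjusted p under 0.05, by DESeq2 and by limma-voom), where 26.2% of all genes were called higher and 25% lower. The median log2 fold change was 0.90 for the tested members and 0.0051 over all genes, and it too depends on which members passed the low-count filter. PCDHB8 was higher by 3.37 ± 0.44, PCDHB16 by 3.03 ± 0.29, PCDHB6 by 2.95 ± 0.27 and PCDHB13 by 2.55 ± 0.44 on the log2 scale, with edgeR adjusted p from 1.93e-08 to 6.66e-05. Without ITGB4-high replicate 1 the value for PCDHB8 was 4.30. PCDHB5 at 1.21 ± 0.24 and PCDHB2 at 0.92 ± 0.15 also rose (edgeR adjusted p = 0.000265 and 3.91e-05), and for all 6 the lung libraries lay above both ITGB4-high libraries, in a comparison where 66.8% of all tested genes did not overlap. The other 4 calls each depended on single libraries: PCDHB11 (2.11 ± 0.73, edgeR adjusted p = 0.0209) was 1.53 without ITGB4-high replicate 1 (adjusted p = 0.18), 1.87 without lung replicate 1 (adjusted p = 0.0731) and 3.04 without ITGB4-high replicate 2. PCDHGB2 (1.21 ± 0.46, edgeR adjusted p = 0.0344) was not called without either ITGB4-high library or without lung replicates 1 or 3, at 1.02 to 1.34. PCDHB3 (0.82 ± 0.33, edgeR adjusted p = 0.0439) was not called without either ITGB4-high library, ITGB4-low replicate 2, or lung replicates 2 or 3, at 0.73 to 0.90. PCDHGC3 (0.29 ± 0.10, edgeR adjusted p = 0.0237) was not called without ITGB4-high replicate 2 (0.22, adjusted p = 0.159) or lung replicate 3 (0.23, adjusted p = 0.11). None of these 4 was called by DESeq2. With a replicate block PCDHB3, PCDHGB2 and PCDHGC3 were not called, and without the low-count filter PCDHB3 and PCDHGB2 were not. PCDHB3 was also not called by limma-voom or with only these 2 groups. PCDHGB7 was at -0.14 ± 0.26 (edgeR adjusted p = 0.676), with lung and ITGB4-high libraries overlapping.

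Genes around the clusters were described by position only. TAF7, which encodes a subunit of the general transcription factor TFIID and lies between the beta and gamma clusters, averaged 96.8 ± 2.705 CPM in bleomycin-lung, 98.7 ± 5.26 CPM in ITGB4-low clone 1 and 61.3 ± 2.06 CPM in ITGB4-high cells. It was higher in the clone than in ITGB4-high cells by 0.69 ± 0.06 on the log2 scale (edgeR adjusted p = 2.55e-09), and lung over clone it was at -0.03 ± 0.05 (edgeR adjusted p = 0.721). SLC25A2, a mitochondrial carrier gene in the same interval, had 1 count over all libraries. The nearest tested gene before the clusters, ZMAT2, averaged 67.7 ± 2.04 CPM in bleomycin-lung, 71.3 ± 1.30 CPM in ITGB4-low clone 1 and 67.1 ± 3.20 CPM in ITGB4-high cells, with a clone over ITGB4-high log2 fold change of 0.09 ± 0.05 (edgeR adjusted p = 0.165). The nearest after them, DIAPH1, encodes an actin-nucleating formin and averaged 326 ± 9.67 CPM in bleomycin-lung, 309 ± 12.8 CPM in ITGB4-low clone 1 and 266 ± 2.90 CPM in ITGB4-high cells. The clone exceeded ITGB4-high cells by 0.21 ± 0.05 on the log2 scale (edgeR adjusted p = 0.000783). Among the 45 tested protein-coding genes that are no members and lie within 2 Mb of the clusters, 10 rose (22.2%) and 14 fell (31.1%) in the clone against ITGB4-high cells, beside 28.6% and 27.6% of all genes. Their log2 fold changes had a median of -0.03 and a range of -1.58 to 3.77. Against the clone, 14 of the 45 rose (31.1%) and 1 fell (2.22%) in bleomycin-lung cells, beside 14.7% and 15.4% of all genes, with a median of 0.12.

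**Figure D5:**
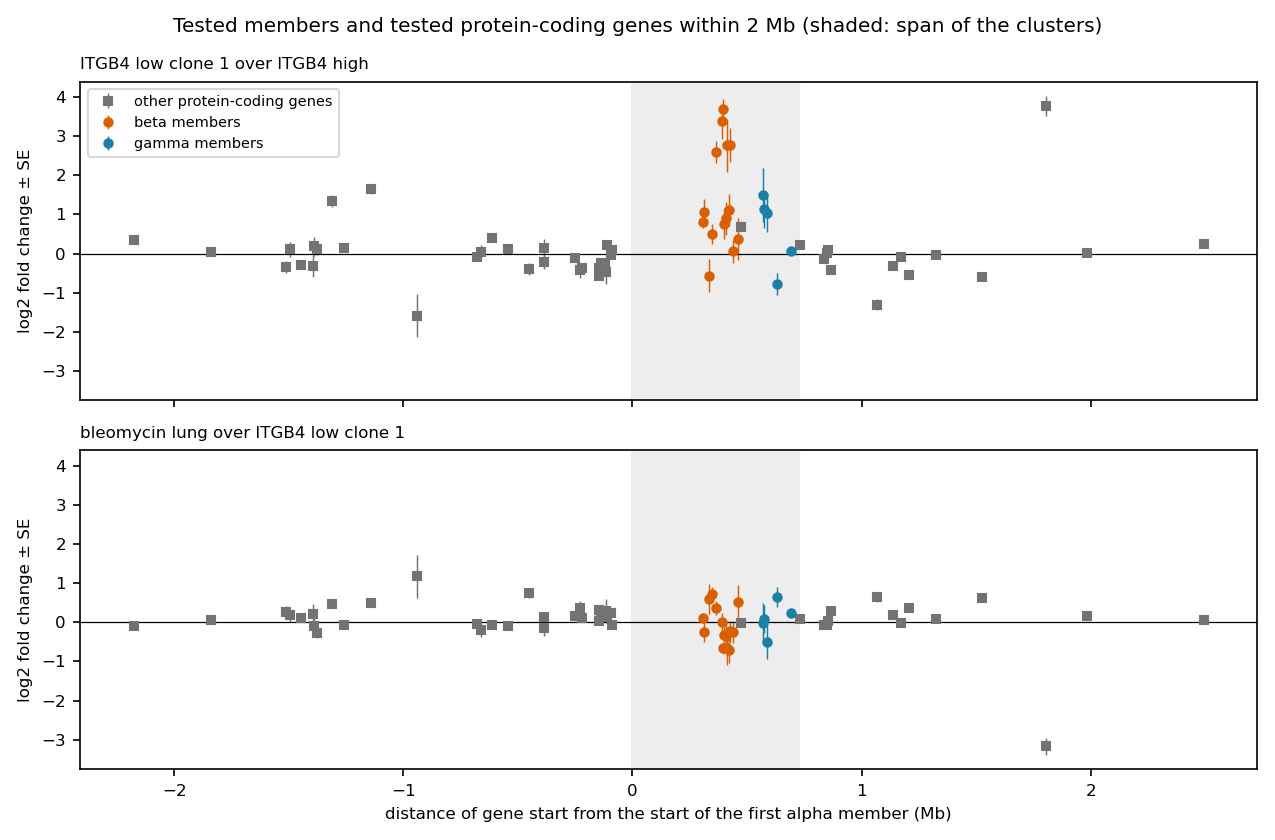
Log2 fold changes with SE (y axis) against the distance of each gene's start from the start of the first alpha member (x axis, Mb) for the 19 tested members and 45 tested neighbours, with the span of the clusters shaded; the upper panel shows ITGB4-low clone 1 over ITGB4-high and the lower panel bleomycin-lung over ITGB4-low clone 1 cells. In the upper panel 5 beta members lie between 2.59 and 3.68 inside the shaded span, and the median of the neighbours is -0.03.

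Genes of cohesin and CTCF, DNA methylation and repressive chromatin were listed by process, not by a shown action on protocadherin promoters. None of their counts is independent of earlier results on these libraries. Among 14 tested cohesin and CTCF genes, 2 rose (14.3%) and 7 fell (50%) in ITGB4-low clone 1 against ITGB4-high cells, where 28.6% of all genes were called higher and 27.6% lower. Their median log2 fold change was -0.11, against 0.0009 over all genes. STAG2, a cohesin subunit, averaged 174 ± 3.46 CPM in bleomycin-lung, 173 ± 8.41 CPM in ITGB4-low clone 1 and 232 ± 8.16 CPM in ITGB4-high cells, and fell in the clone by 0.42 ± 0.05 on the log2 scale (edgeR adjusted p = 4.11e-07). Its paralog STAG1 fell by 0.40 ± 0.05 (edgeR adjusted p = 6.24e-07), while the cohesin kleisin RAD21 rose by 0.23 ± 0.05 (edgeR adjusted p = 0.000352) and the cohesin acetyltransferase ESCO2 by 0.17 ± 0.06 (edgeR adjusted p = 0.0302). In bleomycin-lung cells against the clone none of the 14 rose by edgeR, beside 14.7% of all genes (0 at an unadjusted p under 0.05, by DESeq2 and by limma-voom). There 3 fell (21.4%, beside 15.4% of all genes), RAD21 by 0.20 ± 0.04 and the cohesin loader NIPBL by 0.18 ± 0.05 among them. Against ITGB4-high cells the lung cells had 1 higher, ESCO1 at 0.29 ± 0.08, and 7 lower, beside 26.2% higher and 25% lower of all genes.

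Among 15 tested DNA methylation genes, 4 rose (26.7%, beside 28.6% of all genes) and 6 fell (40%, beside 27.6%) in the clone against ITGB4-high cells. The median log2 fold change was -0.07. TET1, which oxidises methylated cytosine, averaged 1.03 ± 0.636 CPM in bleomycin-lung, 1.67 ± 0.380 CPM in ITGB4-low clone 1 and 0.771 ± 0.343 CPM in ITGB4-high cells, and rose in the clone by 1.11 ± 0.40 on the log2 scale (edgeR adjusted p = 0.0225). TET2, of the same family, rose by 0.53 ± 0.09 (edgeR adjusted p = 5.74e-05), whereas the methyltransferase DNMT3A fell by 0.72 ± 0.15 (edgeR adjusted p = 0.000569) and the methyl-CpG reader MBD4 by 0.53 ± 0.07 (edgeR adjusted p = 1.86e-06). DNMT3A averaged 5.22 ± 0.743 CPM in bleomycin-lung, 4.74 ± 0.776 CPM in ITGB4-low clone 1 and 7.79 ± 1.10 CPM in ITGB4-high cells. In bleomycin-lung cells against the clone, where 14.7% of all genes rose and 15.4% fell, 2 of the 15 rose, HELLS by 0.22 ± 0.07 and the maintenance methyltransferase DNMT1 by 0.15 ± 0.05. Another 5 fell, TET2 by 0.44 ± 0.08 and TET3 by 0.28 ± 0.08 among them. Against ITGB4-high cells 2 rose and 7 fell, beside 26.2% and 25% of all genes, with UHRF1, the DNMT1 partner, at 0.38 ± 0.05 and the methyl-CpG binder MBD1 at -0.71 ± 0.05. DNA methylation itself was not measured in these libraries.

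Of 20 tested repressive chromatin genes, 7 rose (35%) and 6 fell (30%) in the clone against ITGB4-high cells, shares near the 28.6% and 27.6% of all genes. Their median log2 fold change was 0.0052. MORC2 and MPHOSPH8, which act in or with the HUSH silencing complex, rose by 0.47 ± 0.07 and 0.53 ± 0.08, and EHMT1 and its partner WIZ, of the histone H3 lysine methyltransferase complex, fell by 0.36 ± 0.06 and 0.39 ± 0.05 (edgeR adjusted p from 1.69e-06 to 4.67e-05). SMCHD1, a chromatin protein known to repress clustered protocadherins in mouse, averaged 87.4 ± 4.31 CPM in bleomycin-lung, 97.7 ± 7.15 CPM in ITGB4-low clone 1 and 72.0 ± 6.73 CPM in ITGB4-high cells. In bleomycin-lung cells against the clone none of the 20 rose by edgeR, beside 14.7% of all genes (0 at an unadjusted p under 0.05, by DESeq2 and by limma-voom). There 3 fell (15%, beside 15.4% of all genes), SMCHD1 by 0.16 ± 0.06 and the HUSH subunit TASOR by 0.17 ± 0.04 among them. Against ITGB4-high cells 6 rose (30%) and 8 fell (40%), beside 26.2% and 25% of all genes.

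Downstream of the receptors, 4 of 8 tested genes for their proteolytic processing rose and none fell in the clone against ITGB4-high cells by edgeR (0 lower at an unadjusted p under 0.05, by DESeq2 and by limma-voom), beside 28.6% higher and 27.6% lower of all genes. Their median log2 fold change was 0.12. APH1B, a gamma-secretase subunit, averaged 3.99 ± 0.345 CPM in bleomycin-lung, 4.12 ± 0.563 CPM in ITGB4-low clone 1 and 1.06 ± 0.160 CPM in ITGB4-high cells, a rise in the clone of 1.96 ± 0.22 on the log2 scale (edgeR adjusted p = 2e-07). PSEN2, a catalytic subunit, rose by 0.25 ± 0.09 (edgeR adjusted p = 0.0255). None of the 8 passed the edgeR test in bleomycin-lung cells against the clone (1 lower at an unadjusted p under 0.05, 0 by DESeq2 and by limma-voom). Of all genes, 14.7% were called higher and 15.4% lower there. Against ITGB4-high cells 3 of the 8 rose (37.5%, beside 26.2% of all genes), among them the sheddase ADAM17 by 0.29 ± 0.05.

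Of 18 tested intracellular partners of the protocadherin tails and their actin regulators, 6 rose (33.3%) and 6 fell (33.3%) in the clone against ITGB4-high cells, near the 28.6% and 27.6% of all genes, with a median log2 fold change of -0.03. PTK2B, the kinase PYK2 that the constant tails are known to inhibit, averaged 35.9 ± 1.23 CPM in bleomycin-lung, 24.6 ± 2.29 CPM in ITGB4-low clone 1 and 57.4 ± 1.69 CPM in ITGB4-high cells. Its log2 fold change was -1.22 ± 0.07 for the clone over ITGB4-high cells and 0.54 ± 0.07 for lung-recovered cells over the clone (edgeR adjusted p = 1.11e-11 and 2.3e-06). WASF3, of the WAVE actin complex, had 1 count in the clone libraries against 167 in the ITGB4-high libraries, a ratio of ITGB4-high over clone of 214 (95% counting interval 37.8 to 8492), and 1 count in the lung libraries. The kinase FYN and the WAVE subunit ABI1 rose in the clone by 0.82 ± 0.06 and 0.55 ± 0.06. In lung-recovered cells against the clone 2 rose (11.1%, beside 14.7% of all genes) and 7 fell (38.9%, beside 15.4%), with AXIN1, the partner of PCDHGC3, at 0.20 ± 0.05, CYFIP2 at -0.76 ± 0.08 and MARCKS at -0.31 ± 0.04.

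Non-clustered protocadherins and related large cadherins outside the clusters were listed as 25 genes, of which 11 were tested. PCDH1 (chr5:141853111-141879246) is also among the 45 neighbours within 2 Mb described above. In the clone against ITGB4-high cells 7 rose (63.6%, beside 28.6% of all genes) and 3 fell (27.3%, beside 27.6%), with a median log2 fold change of 0.51. FAT4 averaged 8.18 ± 1.52 CPM in bleomycin-lung, 16.0 ± 2.42 CPM in ITGB4-low clone 1 and 6.77 ± 0.183 CPM in ITGB4-high cells, and rose in the clone by 1.24 ± 0.14 on the log2 scale (edgeR adjusted p = 3.88e-07). PCDH18, at 1.51 ± 0.458 CPM in the clone and 0.364 ± 0.0187 CPM in ITGB4-high cells, rose by 2.04 ± 0.43, while PCDH1 and CELSR2 fell by 1.30 ± 0.14 and 0.86 ± 0.10. In lung-recovered cells against the clone 2 rose (18.2%, beside 14.7% of all genes) and 6 fell (54.5%, beside 15.4%). FAT4 fell by 0.98 ± 0.12 and PCDH9 by 1.10 ± 0.10 (edgeR adjusted p = 4.11e-06 and 2.61e-08), and CELSR1, a planar polarity receptor, rose by 1.24 ± 0.05 and PCDH1 by 0.64 ± 0.13. PCDH9 averaged 17.4 ± 2.28 CPM in bleomycin-lung, 37.3 ± 5.54 CPM in ITGB4-low clone 1 and 18.7 ± 0.547 CPM in ITGB4-high cells.

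Markers of the line were read in the same libraries, and several moved between the groups. The 5 mesenchymal markers summed to 6329 to 6841 CPM in bleomycin-lung, 7089 to 7154 CPM in ITGB4-low clone 1 and 6167 to 6567 CPM in ITGB4-high cells. Of the 5, 4 were called higher in the clone than in ITGB4-high cells, beside 28.6% of all tested genes. The receptor kinase gene AXL measured 322, 366 and 330 CPM in bleomycin-lung cells, 514, 490 and 477 CPM in ITGB4-low clone 1 cells, and 159 and 149 CPM in ITGB4-high cells. Its clone over ITGB4-high log2 fold change was 1.68 ± 0.06 (edgeR adjusted p = 8.42e-15). CD44, CAV1 and EGFR rose there by 0.58, 0.64 and 0.54. VIM, the mesenchymal filament gene and the most abundant of the 5, was at -0.08 (edgeR adjusted p = 0.181). In lung-recovered cells AXL, EGFR and CAV1 fell against the clone, by 0.54, 0.38 and 0.22. The 6 luminal breast markers summed to 398 to 416 CPM in bleomycin-lung, 293 to 302 CPM in ITGB4-low clone 1 and 272 to 320 CPM in ITGB4-high cells, mostly KRT18 and ERBB2. The list was thus not absent. Of the receptor genes that define triple-negative tumours PGR had no count, ESR1 was at or under 0.117 CPM and ERBB2 measured 63.4 to 71.6 CPM over all libraries. GATA3, at 12.9 to 19.8 CPM over all libraries, rose in the clone against ITGB4-high cells by 0.40. KRT18 rose in lung-recovered cells against the clone by 0.60, and KRT19 stayed at or under 0.0946 CPM.

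Markers of other cell types were also partly present. The 6 neuron and glia markers given here summed to 20.3 to 22.1 CPM in bleomycin-lung, 39.3 to 44.0 CPM in ITGB4-low clone 1 and 15.4 to 16.2 CPM in ITGB4-high cells. All 3 that were tested, SYT1, SNAP25 and TUBB3, were called higher in the clone than in ITGB4-high cells, as were 28.6% of all tested genes. Their log2 fold changes were 1.52, 3.44 and 0.74. The beta sum was higher in that comparison too, and a link between them was not tested. SNAP25 measured 0.798 to 1.24 CPM in bleomycin-lung, 1.36 to 1.59 CPM in ITGB4-low clone 1 and 0.113 to 0.156 CPM in ITGB4-high cells. SYT1 fell in lung-recovered cells against the clone by 1.40. MBP was at 0 and RBFOX3 and GFAP at or under 0.0779 CPM in every library. The 6 lung fibroblast markers summed to 111 to 121 CPM in bleomycin-lung, 43.1 to 50.01 CPM in ITGB4-low clone 1 and 34.8 to 39.4 CPM in ITGB4-high cells, mostly COL1A1. That gene rose in lung-recovered cells against the clone by 1.72. PDGFRB rose and DCN fell in the clone against ITGB4-high cells, by 2.16 and 1.31, and COL1A2, LUM and DPT were at or under 0.126 CPM. Of the 7 lung epithelium markers SCGB1A1 and SFTPA1 had no count. The sums were 0.709 to 1.22 CPM in bleomycin-lung, 1.60 to 2.05 CPM in ITGB4-low clone 1 and 0.717 to 1.17 CPM in ITGB4-high cells. NKX2-1, one of them, was at or under 0.126 CPM in bleomycin-lung, at 0.966 to 1.17 CPM in ITGB4-low clone 1 and at or under 0.0390 CPM in ITGB4-high cells. The 6 macrophage markers summed to 5.88 to 6.69 CPM in bleomycin-lung, 5.23 to 5.88 CPM in ITGB4-low clone 1 and 3.00 to 3.66 CPM in ITGB4-high cells, mostly CD68. PTPRC, at 0.588 to 1.04 CPM in bleomycin-lung and 0.656 to 0.971 CPM in ITGB4-low clone 1 cells, had no count in ITGB4-high cells. The 5 endothelium markers summed to 2.74 to 3.40 CPM in bleomycin-lung, 3.59 to 5.63 CPM in ITGB4-low clone 1 and 3.23 to 3.96 CPM in ITGB4-high cells, mostly KDR. The part of these markers in the protocadherin differences was not tested.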

How the data were processed

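PolyA RNA libraries were made with a dUTP kit that keeps strand, per the labels' protocols. Reads were aligned with STAR 2.7.1a to hg38, per the submitters' processing notes. The counter, its strand setting and its annotation are each not given in the sources used here. The authors deposited raw counts per gene, 1 column for each of the 8 libraries, and 58216 of the 58336 row identifiers matched GENCODE release 29, from which symbols, positions and exonic lengths were taken.

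Counts were tested with edgeR 4.0.16 (R 4.3.3; filterByExpr, TMM, quasi-likelihood F test) in 1 fit of all 8 libraries with a term per group, leaving 5 residual degrees of freedom. p-values were adjusted by Benjamini-Hochberg over the 15220 genes tested, which held 99.93% of counts. A gene was called at an adjusted p under 0.05. The fit was tested on simulated data with known changes. CPM values are TMM-scaled, and levels of different genes are compared per kb of unique exonic sequence. These lengths leave out exonic bases covered by another gene on the same strand. They are not corrected for sequence repeated in other genes or for exons on the other strand. Alternatives were DESeq2 1.42.0, limma-voom (limma 3.58.1), RLE and upper-quartile factors, no filter, a filter of at least 1 CPM in 2 libraries, a replicate block, only the groups compared, and each library left out. Any 2 libraries of a group differed by more than counting noise (chi-square over degrees of freedom at least 1.6).

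Members that averaged at least 1 CPM in a group are named with every library, other called members with group values, and from each list up to 2 genes called higher and 2 lower by fold change per comparison. From some lists fewer are given with values, and 1 gene of the neuron and glia list is not reported here. The members and lists were chosen with earlier results of these data known. Promoters are from RefSeq (GRCh38.p14), searched with Python 3.11.15.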

Additional observations from a re-analysis of the deposited data

Results flagged for a closer look

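The beta pseudogene PCDHB17P is no protein-coding row and was counted above only among all genes tested, yet it carried a signal that differed between the groups. It had 40, 45 and 48 counts in bleomycin-lung cells, 39, 38 and 50 counts in ITGB4-low clone 1 cells, and 8 and 3 counts in ITGB4-high cells. In CPM it averaged 1.87 ± 0.231 in bleomycin-lung (SD, n = 3), 1.90 ± 0.115 in ITGB4-low clone 1 (SD, n = 3) and 0.209 ± 0.131 in ITGB4-high cells (SD, n = 2). The clone exceeded ITGB4-high cells by 3.14 ± 0.37 on the log2 scale (SE, edgeR adjusted p = 5.36e-07), and lung over clone the value was -0.03 ± 0.22 (edgeR adjusted p = 0.944). The other 5 clustered protocadherin pseudogene rows had at most 10 counts over all libraries.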

How the results depend on the processing

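Under the 16 other settings the count of all genes called in each comparison stayed within 1.5 times. By DESeq2 fewer members were called: 6 (all higher) in ITGB4-low clone 1 against ITGB4-high cells, 1 (PCDHB16) in bleomycin-lung against ITGB4-low clone 1 cells and 6 in bleomycin-lung against ITGB4-high cells, where edgeR called 10, 2 and 10; the cause was not tested. Leaving out each library in turn gave 8 to 10, 2 to 2 and 7 to 10 called members, and 7400 to 8542, 3532 to 4748 and 6623 to 8145 called genes, in the same order of comparisons. Members called under every setting that tested them were PCDHB2, PCDHB6, PCDHB8, PCDHB11, PCDHB13 and PCDHB16 for the clone against ITGB4-high cells, PCDHB16 for lung against clone, and PCDHB2, PCDHB5, PCDHB6, PCDHB8, PCDHB13 and PCDHB16 for lung against ITGB4-high cells. No called member reversed.

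With the replicate number as a block, 9, 2 and 7 members and 7990, 4146 and 7213 genes were called. Same-numbered libraries did not deviate together (r from -0.0748 to 0.04), so the numbers were not taken as pairs. Reversals were confined to values near 0 that were not called. PCDHB8, lung over clone (-0.002), was 0.0088 by DESeq2, 0.023 by limma-voom, 0.0085 with the block, 0.00078 with only the 2 groups, and -0.20 to 0.12 without single libraries. Without single libraries PCDHGB2, lung over clone (0.08), was -0.12 to 0.34, PCDHGB7, lung over ITGB4-high (-0.14), was -0.29 to 0.018, and for the clone over ITGB4-high cells PCDHB14 (0.06) was -0.19 to 0.26 and PCDHGC3 (0.06) was -0.0028 to 0.11. Upper-quartile scaling called 4600 genes higher and 3911 lower in the clone against ITGB4-high cells, where TMM gave 4347 and 4207, with no member call changed. Precision differed between members, with an SE against ITGB4-high cells from 0.10 for PCDHGC3 to 0.69 for PCDHGA4 (clone) and 0.73 for PCDHB11 (lung).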
